A study of Homo sapiens with 6 samples.

Results

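Glycolysis is the chain of cytosolic enzymes that splits glucose into pyruvate and yields ATP without oxygen. Glucose enters the cell through facilitative transporters, and pyruvate is either reduced to lactate and exported or passed to the mitochondrion. Many of these genes are induced in low oxygen by the transcription factor HIF-1, whose alpha subunit is hydroxylated and degraded when oxygen is present. The 36 genes described here are glucose and lactate transporters, glycolytic enzymes, regulators of pyruvate use, HIF1A with 2 of its prolyl hydroxylases, and further genes that low oxygen induces. They were taken by gene symbol from a fixed list, out of 57290 genes in the files, and the list was chosen with earlier results of these data known.

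They were measured in the established human myeloma line KMM1, 4 days after transduction with a lentivirus expressing TAZ (3 libraries, called TAZ) or with the empty vector WPI (3 libraries, called WPI). TAZ is a transcriptional co-activator of the Hippo pathway that works with TEAD factors and is encoded by WWTR1. The comparison asks what a myeloma line transcribes when TAZ is supplied, in cells that carry the vector in both groups. Polyadenylated RNA was sequenced on an Ion Torrent Proton. No label ties the libraries to separate cultures, so every p-value rests on the spread between these samples, and that spread may be technical.

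Libraries held 1100 to 2033 megabases of aligned sequence, and 73.6% to 75.9% of it lay on annotated transcripts. WWTR1 had 365, 138 and 145 scaled TPM in the TAZ libraries, against 2.35, 1.21 and 1.40 in the WPI libraries. Across all tested genes the TAZ libraries correlated with each other at 0.935 to 0.948 and the WPI libraries at 0.897 to 0.939. WPI library 3 correlated at 0.918 with TAZ library 1, at 0.926 with WPI library 2 and at 0.897 with WPI library 1. Of the plasma cell markers, all 8 were detected, and their summed level was 1101 to 1281 scaled TPM in TAZ and 1183 to 1963 in WPI, with SDC1, IRF4 and SLAMF7 called lower in TAZ. The summed epithelial or packaging line markers were at 957 to 2294 in TAZ and 194 to 322 in WPI, with 2 of 4 called higher (KRT8 and KRT18) and EPCAM and CDH1 not called. The summed fibroblast markers were at 37.5 to 44.4 in TAZ and 2.09 to 2.78 in WPI, with 2 of the 3 tested called higher (DCN and LUM), while COL1A1 was at 1.60 to 1.98 in TAZ and 1.43 to 2.04 in WPI. Summed T and NK cell markers reached at most 1.46 in TAZ and 1.14 in WPI, with NKG7 listed at 0 in every library. Summed myeloid markers were at 1.47 to 1.90 in TAZ and 3.45 to 5.24 in WPI, with CD14 called lower. The part of these markers in the results below was not tested. Libraries were sequenced in pairs on a chip. Since no label names the pairs, chip could not be fitted, and its part in the differences between groups is not known.

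Levels are scaled TPM, which is relative to transcript length and to the rest of the library and was brought to a common scale between libraries. Differences are on the log2(scaled TPM + 1) scale, TAZ minus WPI, with the standard error from limma. A gene was called higher or lower at a Benjamini-Hochberg adjusted p under 0.05 over all 19390 tested genes. With the pseudocount of 1, fold changes of weakly expressed genes come out smaller than they are.

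Of the 36 genes, 33 passed the filter of a mean of 1 TPM and were tested. The glucose transporter SLC2A3 was called higher in TAZ, where 2.25% of all tested genes were. The glycolytic enzymes GPI and ALDOC and HIF1A, which encodes the regulated alpha subunit of HIF-1, were called lower, 3 genes in all, where 0.964% of all tested genes were. The other 29 were not called. The median log2 difference was -0.41 over the 33 genes and -0.05 over all tested genes, and 22 of the 33 differences were negative, as were 10624 of the 19390 over all tested genes. The TAZ libraries lay wholly above the WPI libraries for 1 gene, where 10.1% of all tested genes did, and wholly below them for 9, where 14.8% did. Before adjustment, 1 gene was higher and 9 were lower at a p under 0.05, where 7.45% and 10.5% of all tested genes were, and the counts by role and list below are read against these shares. The 9 genes wholly below were SLC2A1, HK2, GPI, ALDOC, TPI1, PGAM1, LDHA, LDHB and HIF1A. HK1, EGLN3 and CA9 were below the filter. Without WPI library 3, SLC2A3 and GPI were called, at 2.59 and -2.16, and ALDOC and HIF1A were not, at -1.32 and -0.76.

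The scaled TPM of all 36 genes together was 8825, 7411 and 6730 in TAZ, against 9181, 11260 and 12420 in WPI. The groups do not overlap in this sum, to which GAPDH contributed most in every library. Summed by role, the gap was not the same everywhere. Glucose entry was at 44.4 ± 2.24 in TAZ and 16.0 ± 0.322 in WPI, and upper steps at 1107 ± 280 in TAZ and 1770 ± 63.7 in WPI (SD, n = 3 each). Lower steps were at 5004 ± 661 in TAZ and 6830 ± 1233 in WPI, and pyruvate and lactate genes at 1366 ± 127 in TAZ and 2134 ± 359 in WPI. Oxygen sensing was at 25.9 ± 1.31 in TAZ and 39.1 ± 1.41 in WPI, and the other hypoxia-induced genes at 108 ± 17.4 in TAZ and 162 ± 42.0 in WPI. In bulk RNA, fewer cells that express a gene and less RNA per cell cannot be told apart.

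**Figure D1:**
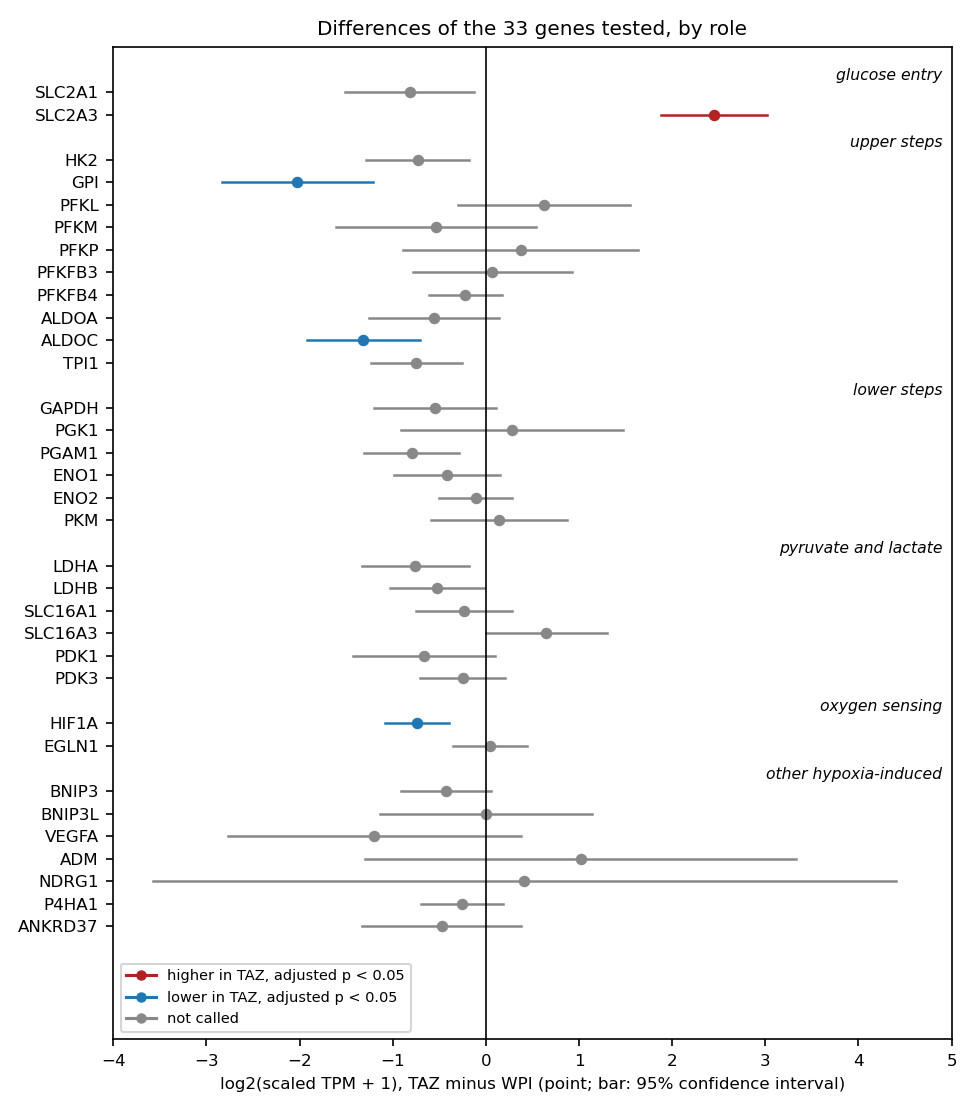
Log2 difference of scaled TPM + 1, TAZ minus WPI, for the 33 genes tested, grouped by role. Points are limma estimates and bars 95% confidence intervals. SLC2A3 stands alone on the right at 2.45, while GPI, ALDOC and HIF1A lie on the left at -2.02, -1.32 and -0.74, and NDRG1 has the widest interval.

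The 2 glucose transporters had differences of opposite sign, and 1 of them was called. SLC2A3 (ENSG00000059804.11, chromosome 12, 8071826 to 8088871, minus strand, hg19) encodes GLUT3, the high-affinity transporter best known from neurons. It had 36.9, 42.5 and 38.6 scaled TPM in the TAZ libraries, against 4.27, 7.47 and 7.92 in the WPI libraries. Every TAZ library was well above every WPI library, and the spread within TAZ was small. The log2 difference was 2.45 ± 0.24, a 5.47-fold higher level on the scale with the pseudocount (limma adjusted p = 0.00332). SLC2A1 (ENSG00000117394.15, chromosome 1), which encodes GLUT1, the widely expressed basal transporter and a textbook HIF-1 target, had 7.66, 4.10 and 3.52 in TAZ and 11.7, 8.88 and 7.80 in WPI. All 3 TAZ libraries were below all 3 WPI libraries, the highest TAZ library only just. The difference of -0.82 ± 0.29 was not called (limma adjusted p = 0.222). SLC2A3 was thus the more abundant of this pair in every TAZ library, and SLC2A1 in WPI libraries 1 and 2.

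SLC2A3 kept its call in all 17 alternative fits, between 1.95 and 2.70. Read depth was compared over 20 exonic stretches of at least 50 bases, as depth per 1000 megabases aligned. Here and below, depth was not scaled between libraries as TPM was. Stretches cut from 1 exon can carry the same listed depth, so counts of stretches are not counts of independent measures. All TAZ libraries were above all WPI libraries in 11 of them and below in 0. The long 3′ stretch and the one before it had the same depth, of 25.3, 30.9 and 27.1 in TAZ, against 1.80, 4.25 and 5.04 in WPI. StringTie placed these reads on different transcripts in different libraries: ENST00000486749.1 held 84.0%, 93.3% and 0% of the gene's bases in TAZ and 0%, 0% and 100% in WPI, and ENST00000075120.7 held 14.9%, 2.81% and 99.8% in TAZ and 100%, 100% and 0% in WPI. Transcript levels of SLC2A3 were therefore not compared. SLC2A14, a close paralog that can share its reads, had 1.50, 1.78 and 2.78 in TAZ and 0.324, 0.457 and 0.442 in WPI. It did not overlap between groups and was not called (1.08 ± 0.23, limma adjusted p = 0.0634).

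**Figure D2:**
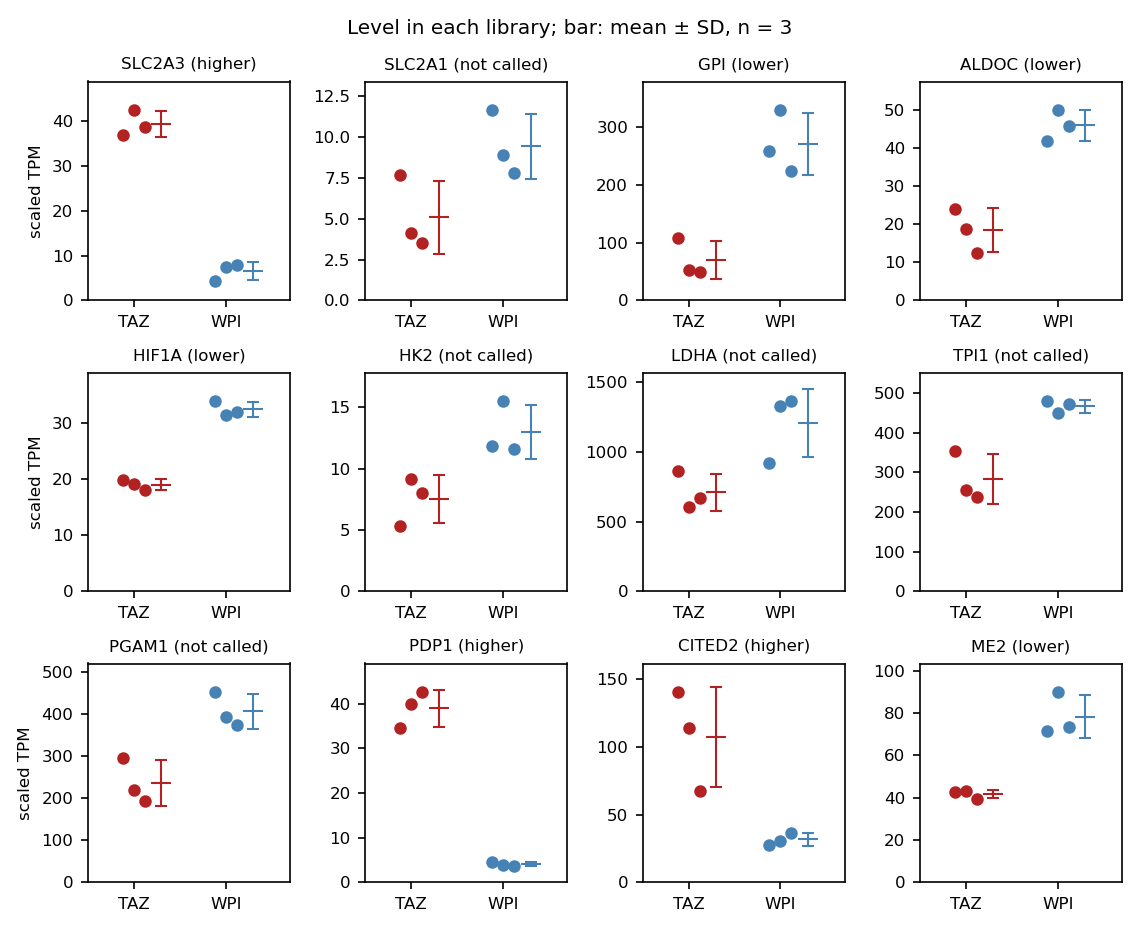
Scaled TPM of 9 genes of the list and of PDP1, CITED2 and ME2 in each library, with TAZ on the left and WPI on the right of each panel. Points are libraries and bars the mean ± SD of 3 libraries. SLC2A3, PDP1 and CITED2 lie higher in TAZ, and in the other 9 panels every TAZ library lies below every WPI library.

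The upper steps carry glucose to triose phosphates. Of 11 genes 10 were tested, 2 were called lower and none higher (limma; at an unadjusted p under 0.05, 0 higher and 4 lower), with a median of -0.55. GPI (ENSG00000105220.10, chromosome 19, 34850385 to 34893061, plus strand, hg19) converts glucose-6-phosphate to fructose-6-phosphate. It had 107, 52.6 and 48.8 scaled TPM in TAZ, against 259, 330 and 225 in WPI. The groups were far apart, and TAZ library 1 was nearest to WPI. GPI fell by 2.02 ± 0.34 on the log2 scale, to 0.246 of the WPI level (limma adjusted p = 0.0297). It was called in 11 of 17 alternative fits, with differences from -2.38 to -1.52. Leaving out TAZ library 2 or 3 or WPI library 1 or 2 ended the call, at -1.87, -1.82, -2.05 and -1.87.

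The depth along GPI was less even than the gene's total. All TAZ libraries were below all WPI libraries in 7 of 20 stretches and above in 1. The terminal 1821 bases had a depth of 45.4, 30.1 and 28.1 in TAZ, against 120, 0 and 73.3 in WPI. WPI library 2, which was listed at 0 there, had 76.3 over the neighbouring 1924 bases, where TAZ had 10.4, 8.40 and 10.1 and the other WPI libraries 6.22 and 12.2. Total bases assigned to GPI gave -1.53 and kept the call (limma adjusted p = 0.0234). ENST00000415930.3, with 26.7% to 84.25% of the gene's bases, had 60.7, 36.4 and 31.6 scaled TPM in TAZ and 145, 49.7 and 98.55 in WPI. ENST00000586077.1, with 5.38% to 62.8%, had 20.5, 15.0 and 17.1 in TAZ and 12.2, 153 and 24.8 in WPI. The rest of the TPM of GPI lay on other transcripts.

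ALDOC (ENSG00000109107.9, chromosome 17, 26900133 to 26904282, minus strand, hg19) encodes aldolase C, the brain-type isoform of the enzyme that splits fructose-1,6-bisphosphate. It had 24.0, 18.8 and 12.4 scaled TPM in TAZ, against 41.9, 50.0 and 45.9 in WPI. The groups did not overlap, and the WPI libraries were close together. ALDOC fell by 1.32 ± 0.25 (limma adjusted p = 0.0489), and its 3′ terminal 507 bases had a depth of 24.0, 16.4 and 16.6 in TAZ and 43.5, 38.3 and 39.9 in WPI. Unscaled TPM gave -1.07 and no call (limma adjusted p = 0.0544). The call held in 7 of 17 alternatives and, of the fits that left out 1 library, only in that without TAZ library 1, over differences from -1.52 to -1.08. ALDOA, the main muscle and ubiquitous aldolase and the most abundant of the upper steps, had 685, 445 and 416 in TAZ and 571, 728 and 978 in WPI. Its groups overlapped, and it was not called (-0.56 ± 0.29, limma adjusted p = 0.365).

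Among the kinases, HK2, the inducible hexokinase that traps glucose in the cell, had 5.35, 9.16 and 8.00 scaled TPM in TAZ and 11.8, 15.5 and 11.6 in WPI. The groups did not overlap, but the difference was not called (-0.73 ± 0.23, limma adjusted p = 0.182). HK1, the housekeeping hexokinase, was at 0.559 ± 0.359 in TAZ and 0.412 ± 0.146 in WPI (SD, n = 3) and was not tested, with 69.2% to 85.6% of its exonic bases listed at a depth of 0. The 3 phosphofructokinase subunits, which make the committed step, were not called. PFKL, the liver type, had 27.7 ± 7.85 in TAZ and 18.8 ± 10.5 in WPI, PFKM, the muscle type, 36.9 ± 12.6 in TAZ and 58.6 ± 36.2 in WPI, and PFKP, the platelet type, 123 ± 30.1 in TAZ and 111 ± 76.2 in WPI. PFKFB3 and PFKFB4 set the level of fructose-2,6-bisphosphate, the activator of phosphofructokinase. PFKFB3 was at 21.9 ± 6.15 in TAZ and 21.5 ± 9.57 in WPI, and PFKFB4 at 3.51 ± 0.349 in TAZ and 4.26 ± 0.424 in WPI, neither called. TPI1, which interconverts the triose phosphates, had 354, 256 and 237 in TAZ and 480, 449 and 472 in WPI. It did not overlap and was not called (-0.74 ± 0.20, limma adjusted p = 0.129). Without TAZ library 1 it was called, at -0.92 (limma adjusted p = 0.049).

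The lower steps turn triose phosphates into pyruvate and yield ATP. All 6 genes were tested and none was called in either direction (limma; at an unadjusted p under 0.05, 0 higher and 1 lower), with a median of -0.26. GAPDH, the dehydrogenase often used as a reference transcript, was the most abundant, with 3736, 2677 and 2517 scaled TPM in TAZ, against 3276, 4315 and 5539 in WPI. TAZ library 1 lay above WPI library 1, so the groups overlapped, and the WPI libraries alone ranged widely. The difference was -0.55 ± 0.27 (limma adjusted p = 0.347), and none of its 12 exonic stretches separated the groups. PGAM1, phosphoglycerate mutase, had 296, 220 and 193 in TAZ and 452, 392 and 374 in WPI. It did not overlap and was not called (-0.80 ± 0.21, limma adjusted p = 0.124). ENO1, the ubiquitous enolase, had 1012, 954 and 819 in TAZ and 928, 1335 and 1512 in WPI. Its groups overlapped, with a difference of -0.41 ± 0.24. ENO2, the neuronal enolase, was at 37.5 ± 1.86 in TAZ and 40.8 ± 5.57 in WPI (-0.11 ± 0.17), neither called.

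PKM, pyruvate kinase, had 741 ± 197 scaled TPM in TAZ and 671 ± 181 in WPI and was not called (0.14 ± 0.30, limma adjusted p = 0.83). On aligned bases the sign was reversed, at -0.12 (limma adjusted p = 0.753). Short transcripts weighed unevenly on its TPM: the 699-base ENST00000563275.1 had 0.101, 319 and 251 in TAZ and 419, 0.320 and 0.301 in WPI. Its PKM1 and PKM2 enzymes differ by a pair of mutually exclusive exons. The 2 neighbouring exons of equal length on chromosome 15, 72494795 to 72494961 and 72495363 to 72495529 (hg19), were both listed at a depth of 0 in every library. A share of PKM1 could therefore not be computed, and the exact permutation test set for it was not run. Transcripts that contain the exon at 72495363 were nevertheless given 196, 9.67 and 11.8 scaled TPM in TAZ and 109, 82.1 and 134 in WPI. Those that contain the exon at 72494795 were given 0 in every library. A further exon of the same length, 72511285 to 72511451, is part of 15 transcripts and was also listed at 0 in every library. Transcript TPM is taken over the whole transcript, so whether reads were absent from these exons cannot be told here.

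Pyruvate and lactate genes gave no call among 6 tested (limma; at an unadjusted p under 0.05, 0 higher and 2 lower), with a median of -0.39. LDHA, the lactate dehydrogenase subunit that favours lactate formation, had 859, 602 and 666 scaled TPM in TAZ, against 922, 1324 and 1362 in WPI. The groups did not overlap, though TAZ library 1 and WPI library 1 were close. The difference was -0.76 ± 0.24 (limma adjusted p = 0.184), and 9 of 27 exonic stretches had every TAZ library below every WPI library, with 1 above. LDHB, the subunit that predominates in heart, had 613 ± 104 in TAZ and 880 ± 126 in WPI (-0.53 ± 0.21, limma adjusted p = 0.263). The lactate exporters were not called: SLC16A1 (MCT1) was at 31.2 ± 4.22 in TAZ and 37.2 ± 7.91 in WPI, and SLC16A3 (MCT4), a hypoxia-induced exporter, at 5.69 ± 1.79 in TAZ and 3.23 ± 0.952 in WPI. PDK1 and PDK3 are kinases that switch off pyruvate dehydrogenase. PDK1 was at 2.81 ± 0.337 in TAZ and 5.36 ± 2.35 in WPI, and PDK3 at 4.40 ± 0.579 in TAZ and 5.44 ± 1.02 in WPI.

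Oxygen sensing held the third call on the low side. HIF1A (ENSG00000100644.12, chromosome 14, 62162231 to 62214976, plus strand, hg19) had 20.0, 19.1 and 18.1 scaled TPM in TAZ, against 34.0, 31.5 and 32.0 in WPI. Both groups were tight and well apart. HIF1A fell by 0.74 ± 0.14 (limma adjusted p = 0.0494), which is just inside the threshold, and no fit that left out any 1 library made the call, at -0.78 to -0.71. The last exon did not separate the groups, with a depth of 6.46, 10.4 and 11.1 in TAZ and 8.33, 11.9 and 11.6 in WPI. Of 18 stretches 6 had every TAZ library below WPI and 3 had every TAZ library above. Total bases of HIF1A gave -0.54 and no call (limma adjusted p = 0.0983), unscaled TPM gave -0.49 (limma adjusted p = 0.279), and 4 of 17 alternatives made the call. Much of the gap in TPM lay on a 616-base transcript, ENST00000553999.1, which held 3.11% to 11.2% of the gene's bases. It had 6.77, 4.78 and 3.07 scaled TPM in TAZ and 15.1, 9.42 and 13.0 in WPI. The main transcript, ENST00000394997.1, had 13.2, 14.3 and 15.0 in TAZ and 18.85, 22.1 and 19.0 in WPI. HIF-1 alpha is controlled largely through protein stability, which RNA does not measure. EGLN1, the main prolyl hydroxylase that marks HIF-1 alpha for degradation, was at 6.67 ± 0.481 in TAZ and 6.47 ± 0.935 in WPI (0.04 ± 0.17, limma adjusted p = 0.912). EGLN3, a hydroxylase that is itself induced by low oxygen, was at 0.208 ± 0.0982 in TAZ and 0.156 ± 0.0498 in WPI and was not tested.

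None of the 7 tested genes among the other hypoxia-induced genes was called (limma; at an unadjusted p under 0.05, 0 higher and 0 lower), and their median was -0.26. NDRG1, a stress-induced gene often used as a hypoxia readout, was the most abundant, with 53.3, 23.4 and 25.4 scaled TPM in TAZ, against 0.358, 110 and 97.4 in WPI. A single WPI library at almost 0 put the spread of WPI on both sides of TAZ. The difference was 0.41 ± 1.66, and it ranged from -1.68 without WPI library 1 to 1.51 without WPI library 2, called in neither. VEGFA, the angiogenic growth factor, had 17.0, 29.0 and 5.05 in TAZ and 61.2, 20.3 and 28.8 in WPI (-1.20 ± 0.66, limma adjusted p = 0.387), and its difference was -0.55 without TAZ library 3 and -0.76 without WPI library 1. BNIP3 and BNIP3L act in mitophagy; BNIP3 was at 7.07 ± 1.25 in TAZ and 9.89 ± 1.81 in WPI, and BNIP3L at 19.1 ± 9.78 in TAZ and 17.6 ± 6.31 in WPI. P4HA1, a collagen prolyl hydroxylase subunit, was at 5.92 ± 0.882 in TAZ and 7.27 ± 1.02 in WPI, and ANKRD37 at 0.760 ± 0.269 in TAZ and 1.58 ± 1.03 in WPI. CA9, a carbonic anhydrase and a sharp hypoxia marker in many tumours, was listed at 0 in all 6 libraries.

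In several genes 1 library had little or no listed depth over a long exon that the others covered, and the following were picked after their values were seen. These depths are StringTie's assignments, and reads that were absent cannot be told apart here from reads placed elsewhere. The NDRG1 last exon had a depth per 1000 megabases of 39.3, 16.2 and 16.5 in TAZ, against 0.0125, 80.3 and 72.2 in WPI. The PGK1 last exon had 27.0, 34.2 and 36.2 in TAZ, against 0.0759, 32.9 and 31.9 in WPI. The PDK1 last exon had 1.40, 1.98 and 1.53 in TAZ, against 3.47, 0 and 3.79 in WPI. In PDK1 the library at 0 had 99.9% of the gene's bases on another transcript, ENST00000543905.1. ADM, the vasodilator peptide adrenomedullin, had 20.3, 18.8 and 16.3 over its 3′ stretch in TAZ, against 11.2, 22.3 and 0.445 in WPI. In VEGFA it was a TAZ library, with 5.27, 24.9 and 0.0209 over the last 1490-base stretch in TAZ, against 12.3, 12.02 and 15.1 in WPI. The low library was thus not always the same one, nor always of the same group. Gene totals of NDRG1, PGK1, ADM and VEGFA were lowest in the same libraries. That of PDK1 was 2.71 scaled TPM in WPI library 2, within the range of the TAZ libraries (2.56, 3.19 and 2.67). PGK1, which makes the first ATP of glycolysis, had 110, 78.7 and 64.1 scaled TPM in TAZ and 30.5, 109 and 92.3 in WPI, and its difference was 0.28 ± 0.50, or -0.28 without WPI library 1. ADM had 28.4, 23.6 and 20.7 in TAZ and 22.3, 33.9 and 1.33 in WPI, with a difference of 1.02 ± 0.96, or -0.19 without WPI library 3. Neither was called in any of these fits, and the cause of the low depths was not tested.

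**Figure D3:**
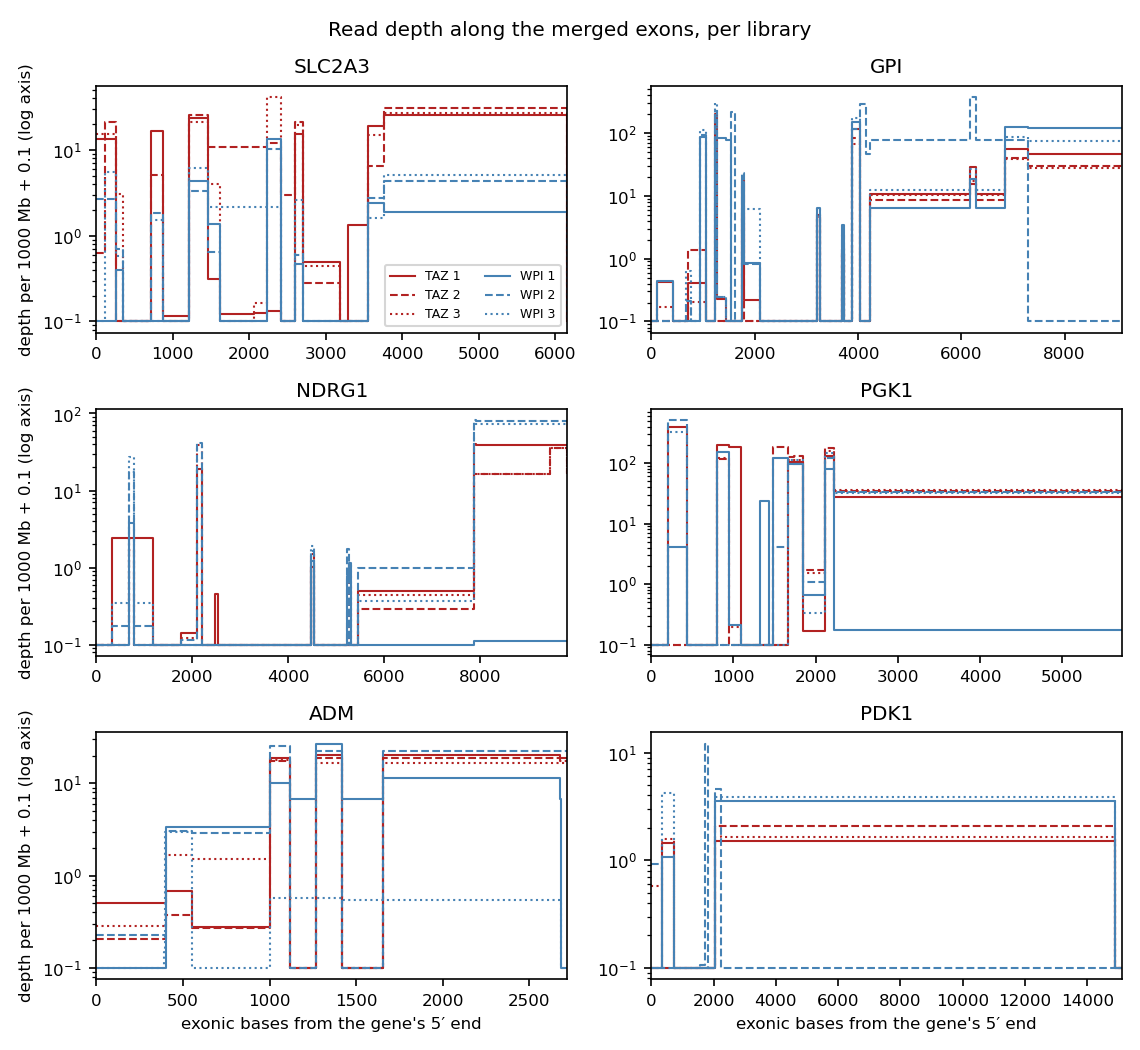
Read depth per 1000 aligned megabases (plus 0.1, log axis) along the merged exons of 6 genes, in bases from the 5′ end, for 3 TAZ libraries (red) and 3 WPI libraries (blue). SLC2A3 is covered more deeply in every TAZ library over its long 3′ stretch, while single WPI libraries drop towards the floor over the long last exons of GPI, NDRG1, PGK1, ADM and PDK1.

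Glycolytic enzymes have many processed pseudogenes, near-copies of the mRNA, and reads can be split between a gene and its copies. The files annotate 104 pseudogenes for 15 of the 36 genes. Of the 61 tested, 0 were called higher and 2 lower (GAPDHP32 and LDHAP3), where 2.25% and 0.964% of all tested genes were. Those with a mean of at least 10% of their parent gene's were HK2P1, TPI1P1, GAPDHP1, PGK1P2, ENO1P1, LDHAP4, LDHBP2, EGLN1P1 and BNIP3P1. TPI1P1 had 212 ± 58.0 scaled TPM in TAZ and 319 ± 5.15 in WPI, or 70.8% of the mean of TPI1, and BNIP3P1 reached 103.5% of BNIP3. The 56 GAPDH pseudogenes summed to 1064 in TAZ and 1543 in WPI, which is 35.7% of GAPDH in TAZ and 35.3% in WPI. Those of LDHA summed to 247 in TAZ and 425 in WPI, and those of SLC2A3 to 4.51 in TAZ and 1.65 in WPI. Levels of the parents of these 9 pseudogenes (HK2, TPI1, GAPDH, PGK1, ENO1, LDHA, LDHB, EGLN1 and BNIP3) are therefore uncertain, as are those of SLC2A3, ALDOA and PKM, whose summed pseudogenes also passed 10%. PGAM4, counted among the other isoforms and not as a pseudogene, had 74.0 scaled TPM in TAZ and 94.5 in WPI. PGAM1 had 236 in TAZ and 406 in WPI, and whether the 2 genes shared reads was not tested. Adding the pseudogenes to their parents left 2.31 for SLC2A3, which remained called. GPI and ALDOC have none in the files, and HIF1A has 1 at 3.51% of its level in TAZ and 8.21% in WPI.

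**Figure D4:**
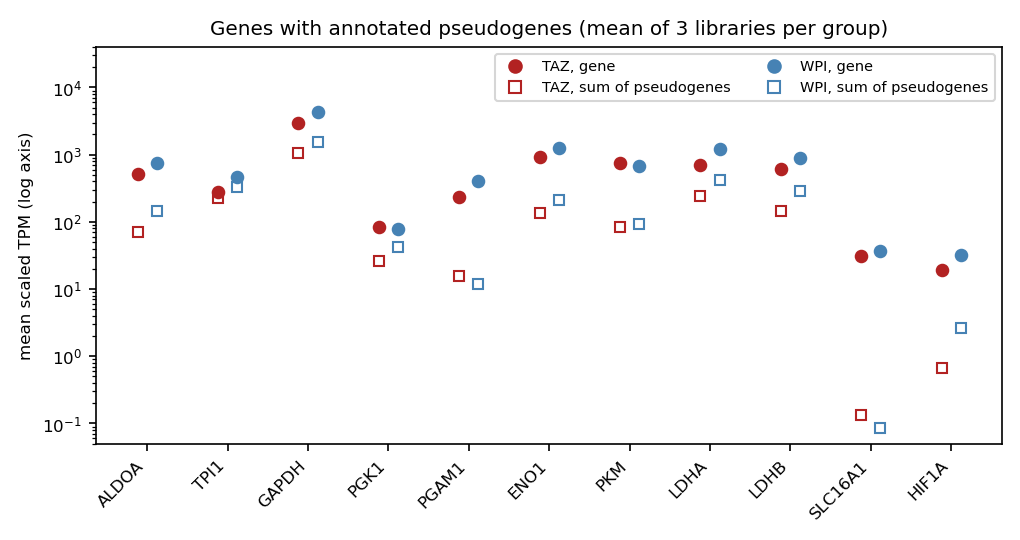
Mean scaled TPM of 3 libraries per group (log axis) for the more abundant genes with annotated pseudogenes: filled circles are the gene, open squares the sum of its pseudogenes, TAZ in red on the left and WPI in blue on the right. The pseudogenes of TPI1 come closest to their parent, with 225 scaled TPM in TAZ and 332 in WPI.

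Related genes outside the list of 36 gave 4 calls among 84 tested, where 2.25% of all tested genes were called higher and 0.964% lower. Of 16 genes for the entry of pyruvate into mitochondria 14 were tested, with 1 called higher and 1 lower (limma; at an unadjusted p under 0.05, 2 and 4). PDP1, the phosphatase that removes the inhibitory phosphate from pyruvate dehydrogenase and so opposes the PDK kinases, had 34.5, 39.9 and 42.6 scaled TPM in TAZ, against 4.53, 3.94 and 3.77 in WPI. The groups were far apart with little spread, and PDP1 rose by 2.98 ± 0.16 (limma adjusted p = 4.53e-04), a call kept in all 17 alternatives. ME2, the mitochondrial malic enzyme, which makes pyruvate from malate, had 42.6, 43.1 and 39.4 in TAZ and 71.5, 90.0 and 73.4 in WPI. It fell by 0.89 ± 0.16 (limma adjusted p = 0.0413), and no fit that left out any 1 library made the call, at -0.95 to -0.78. The median of these 14 genes was -0.34.

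Of 14 HIF machinery genes 12 were tested, with 1 called higher and 0 lower (limma; at an unadjusted p under 0.05, 1 and 0) and a median of 0.00. The gene called was CITED2, which competes with HIF-1 alpha for the co-activators CBP and p300 and is itself HIF-induced. It had 141, 114 and 67.5 scaled TPM in TAZ and 27.9, 30.6 and 36.7 in WPI. The groups did not overlap, and TAZ library 3 was nearest to WPI. CITED2 rose by 1.67 ± 0.29 (limma adjusted p = 0.0349), and of the fits without 1 library only that without TAZ library 3 kept the call. Of 41 further hypoxia-induced genes 31 were tested, with 0 called higher and 1 lower (limma; at an unadjusted p under 0.05, 8 and 4), at a median of -0.03. The gene called was CXCR4, the chemokine receptor that keeps plasma cells in the bone marrow. It had 4.79, 5.58 and 6.44 in TAZ, against 41.6, 39.8 and 20.4 in WPI, and fell by 2.35 ± 0.30 (limma adjusted p = 0.00965). Every TAZ library was below every WPI library, and of the fits that left out 1 library only that without TAZ library 2 ended the call (limma adjusted p = 0.0547).

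Neither of the remaining lists gave a call. Of 34 other isoforms, glucose transporters and their regulators 17 were tested (limma; at an unadjusted p under 0.05, 4 higher and 0 lower), with a median of -0.03. Of 13 pentose phosphate and gluconeogenesis genes 10 were tested (limma; at an unadjusted p under 0.05, 0 higher and 4 lower), with a median of -0.50 and 8 of 10 differences negative. The smallest adjusted p among them was that of G6PC3, a ubiquitous glucose-6-phosphatase subunit picked after its values were seen. It was at 43.8 ± 6.94 scaled TPM in TAZ and 78.7 ± 3.78 in WPI (SD, n = 3 each), a difference of -0.84 ± 0.17 that was not called (limma adjusted p = 0.0593).

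The HIF core motif was searched in RefSeq promoter windows (GRCh38.p14, 250 bases before to 50 after the start of transcription), which were found for 31 of the 36 genes. ACGTG on either strand was in 14 of them (45.2%), against 21.4% of all 35116 windows, and GCGTG in 15 (48.4%), against 36.5%. Either was in 23 (74.2%), against 48.4% of all windows. The list holds textbook HIF-1 targets, so these shares describe the list as chosen, and a palindromic CACGTG counts on both strands. For the list 1 window per gene was kept. The windows set beside them were neither reduced to 1 per gene nor limited to tested genes. These sets are thus unlike, and the source of the difference in shares was not tested. GGAATG, the core bound by TEAD factors, was in 2 (6.45%; ENO1 and PGAM1), against 14.0% of all windows. SLC2A3 had no window. For the 3 genes of the list called lower and for CITED2 and CXCR4, 1 window of 27 bases around a match is printed on the strand of the gene, 5′ to 3′, with the match in capitals, to show what the search found. A match is a description, not a bound site or a cause.
GPI, chr19:34364819-34364845, plus strand, 162 bases before the start: cactgcctgtaACGTGgaaggtgttcg
ALDOC, chr17:28577119-28577145, minus strand, 239 bases before the start: aagtgcccggcACGTGgtaaagggatt
HIF1A, chr14:61695298-61695324, plus strand, 204 bases before the start: ggctgagagcgGCGTGggctggggtgg
CITED2, chr6:139374785-139374811, minus strand, 152 bases before the start: gcctctgcagcACGTGccgcgggcggc
CXCR4, chr2:136118173-136118199, minus strand, 39 bases before the start: ccgcgctcggaGCGTGtttttataaaa
ALDOC and CITED2, in which the match is part of the palindrome, and GPI share ACGTG, while HIF1A and CXCR4 hold GCGTG. The motif was present in the window of a gene that was called higher (CITED2) as well as in those of genes called lower.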

How the data were processed

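RNA of 3 TAZ and 3 WPI libraries of KMM1 cells was analysed. Per the submitters' processing notes, the tools were STAR 2.3.0, Bowtie2 2.0.0 and StringTie 1.3.3b with hg19. Per the file headers, StringTie ran once per library on a supplied annotation, without pooling; its release and strand setting are not given in the sources used here. The deposited values are TPM and FPKM per transcript and coverage (mean read depth per base) per transcript and exon. Transcript TPM was summed per gene, scaled by the median of ratios over 28148 genes above 0 in every library, and tested with limma 3.58.1 in R 4.3.3 (eBayes with trend and robust) without a block, where the mean over the 6 libraries reached 1 TPM. The procedure was tested on simulated data. Exon depth was divided by aligned bases, which the deposited coverage and FPKM give, and was not scaled further between libraries. StringTie divides shared reads between near-identical genes. Alternatives changed scaling, pseudocount, filter, unit and libraries. The genes and lists were chosen with earlier results of these data known. Values in every library are given for called genes, for genes whose groups do not overlap with a log2 difference of at least 0.58 in size, and for the most abundant gene of each role. From related lists the called genes are named, and pseudogenes at 10% or more of the parent.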

Additional observations from a re-analysis of the deposited data

How the results depend on the processing

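Over 17 alternatives the number of the 33 genes called higher was always 1 (SLC2A3), and no call changed direction. The number called lower, 3 in the reported fit, was 1 without scaling, 0 with no filter on low values, 1 without trend and robust fitting, and 0 to 3 when 1 library was left out (0 without TAZ library 2 or 3 or WPI library 1 or 2, 1 without WPI library 3, 3 without TAZ library 1). The median log2 difference was -0.15 without scaling, -0.21 with a pseudocount of 5, -0.26 without the filter, -0.31 on FPKM, -0.26 on aligned bases, and -0.38 to -0.29 with 1 library left out. Scaling itself shifts the median of all tested genes, which was 0.17 unscaled and -0.05 scaled. Over all tested genes, 436 higher became 290 without the filter and 224 to 513 with 1 library left out, and 187 lower became 85 without scaling, 62 without the filter and 54 to 261 with 1 library left out. With the replicate number as a block, 202 genes were called higher and 34 lower, of which 1 and 0 were among the 33. Whether the numbers pair the libraries is not known. Deviations of same-numbered libraries correlated at 0.00, -0.02 and -0.05, which cannot show whether they were handled together. The share of PKM1 could not be computed under any setting. Changes under 2-fold were mostly not resolvable at a median SE of 0.24.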
